A study of Homo sapiens with 6 samples.

Results

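The 10 genes described here encode proteins that bind or unwind G-quadruplexes: the DNA helicases PIF1, BLM, WRN, RTEL1 and BRIP1, the DNA and RNA helicase DHX36, the nucleolar protein nucleolin (NCL), and the zinc finger proteins CNBP, MAZ and SP1. They were taken by symbol as a fixed list, all 10 were present among the 33514 gene symbols of the count tables, and all 10 were among the 16209 genes that passed the filter on low counts. RNA was sequenced from PC3 cells, a human prostate cancer line derived from a bone metastasis and grown in RPMI medium with 10% serum. There were 3 groups of 2 libraries: cells with no treatment, cells after 2 h and cells after 4 h with 50 µM heme, the iron-porphyrin group of hemoglobin, in the medium. The labels name no vehicle control. They do not tell replicate cultures from repeat libraries, and every p-value refers to the variation among the libraries alone, which could be technical.

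A G-quadruplex is a fold of guanine-rich DNA or RNA in which tetrads of guanines stack on each other. Heme binds such folds, and the series concerns heme bound to DNA G-quadruplexes and the expression of MYC, whose promoter forms one. Helicases of several families unfold these structures so that replication forks, telomeres and messenger RNAs can be copied or read. PIF1 is a 5′ to 3′ helicase, BLM and WRN belong to the RecQ family, RTEL1 and BRIP1 (FANCJ) carry an iron-sulfur cluster, and DHX36 (RHAU) is a DEAH-box enzyme. NCL, CNBP, MAZ and SP1 are known to bind the guanine-rich strand or duplex of promoters that include that of MYC.

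The sequences just upstream of the genes are shown first, for the 4 genes whose RNA was lower at 2 h. The RefSeq promoter table (GRCh38.p14, 300 bases from 250 before to 50 after each start) held 9 of the 10 genes. WRN was not among them. The windows below are the 250 bases before the start, written 5′ to 3′ on the strand of the gene. Capitals in PIF1 mark the CCAAT box (CCAAT, here read on the other strand as ATTGG), the site of the factor NF-Y, and the cell cycle genes homology region or CHR (TTTGAA), a site of the complexes that time genes of G2 and mitosis. Capitals in the other 3 genes mark CCAAT boxes and GC boxes (GGGCGG, or CCGCCC on the other strand), the site of SP1. Both strands were searched for each motif.
PIF1 (chr15:64825648-64825897, minus strand): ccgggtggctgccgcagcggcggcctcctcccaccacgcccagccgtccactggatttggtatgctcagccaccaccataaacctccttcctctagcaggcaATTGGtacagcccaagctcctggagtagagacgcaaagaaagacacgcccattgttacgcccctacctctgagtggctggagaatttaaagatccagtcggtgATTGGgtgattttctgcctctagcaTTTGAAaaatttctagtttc
DHX36 (chr3:154324488-154324737, minus strand): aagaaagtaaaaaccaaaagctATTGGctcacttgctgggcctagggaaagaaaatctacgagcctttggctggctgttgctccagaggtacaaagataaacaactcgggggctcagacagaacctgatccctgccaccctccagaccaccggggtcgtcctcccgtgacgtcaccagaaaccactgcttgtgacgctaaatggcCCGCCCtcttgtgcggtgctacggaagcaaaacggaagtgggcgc
NCL (chr2:231464485-231464734, minus strand): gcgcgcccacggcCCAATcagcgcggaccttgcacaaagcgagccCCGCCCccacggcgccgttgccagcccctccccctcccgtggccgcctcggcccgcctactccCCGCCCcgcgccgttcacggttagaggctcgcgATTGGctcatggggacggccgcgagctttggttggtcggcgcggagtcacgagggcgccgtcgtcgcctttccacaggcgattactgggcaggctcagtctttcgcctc
CNBP (chr3:129183897-129184146, minus strand): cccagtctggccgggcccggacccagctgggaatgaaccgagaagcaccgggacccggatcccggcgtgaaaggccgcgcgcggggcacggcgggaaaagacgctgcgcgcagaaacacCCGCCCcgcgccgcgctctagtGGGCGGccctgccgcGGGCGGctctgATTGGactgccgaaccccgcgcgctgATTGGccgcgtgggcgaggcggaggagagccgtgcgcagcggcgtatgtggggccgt

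PIF1 carried CCAAT boxes that began at -148 and -45 and a CHR that began at -20, counted from the start site with -1 as the last base before it. Of all 35116 promoters in the table, 34.6% held a CCAAT box, 15.2% a CHR and 5.9% both. Counted per gene, with a match at any of its starts, the shares of 27305 genes were 39.7%, 18.2% and 7.26%. The counts for the 9 genes are also per gene. BRIP1 was the other of the 9 genes with both, its CHR lying far upstream at -240. PIF1 was also the 1 gene of the 9 without a GC box, which 45% of all promoters and 48.3% of all genes held. A CCAAT box was found in 7 of the 9 genes, among them BLM, BRIP1 and SP1, which were not called at 2 h. The boxes marked above were therefore not particular to the 4 genes called lower. A canonical G-quadruplex motif, 4 runs of at least 3 guanines with loops of 1 to 7 bases, was searched on either strand. It was found in 25% of all promoters and, counted per gene, in 27.9% of all genes. It was found in 4 of the 9 genes, RTEL1, BRIP1, MAZ and SP1, none of which passed the test for a change after heme. No match lay in these windows of PIF1, DHX36, NCL and CNBP, which passed at 2 h, or of BLM, which did not. Whether the motif went with the calls was not tested. The matches are printed because they are the feature that gives this group of proteins its name. Those of MAZ, and the second of SP1, are runs of cytosine on the strand of the gene, so the guanines lie on the other strand.
RTEL1: GGGGCCTTCTGGGGCCTTCTGGGGCATGGG
BRIP1: GGGCTATTGGGCGCTGGGAGTCGAGGGGG
MAZ, match at -242: CCCCCTCCCTCCCTCGCGCCC
MAZ, match at -163: CCCTCGCTCCCCCCACCCCGCCCC
MAZ, match at -103: CCCGGGCCCCCGCCCCCGGCCCC
SP1, second start, match at -212: GGGGCGGAGGGAAGGGAGGG
SP1, second start, match at -115: CCCGCCCCCTGCCCGCCCC

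The match of BRIP1 ran from -33 to -5 and overlapped a CCAAT box at -28 and the GC box at -7, and that of RTEL1 lay upstream of the first of its 2 RefSeq starts, from -103 to -74. The matches of SP1 overlapped GC boxes, and the one on the strand of the gene also contained the sequence GGGAGGG bound by MAZ, which 26.6% of all promoters held. A motif match is a description of the letters only, and binding was not measured.

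**Figure D1:**
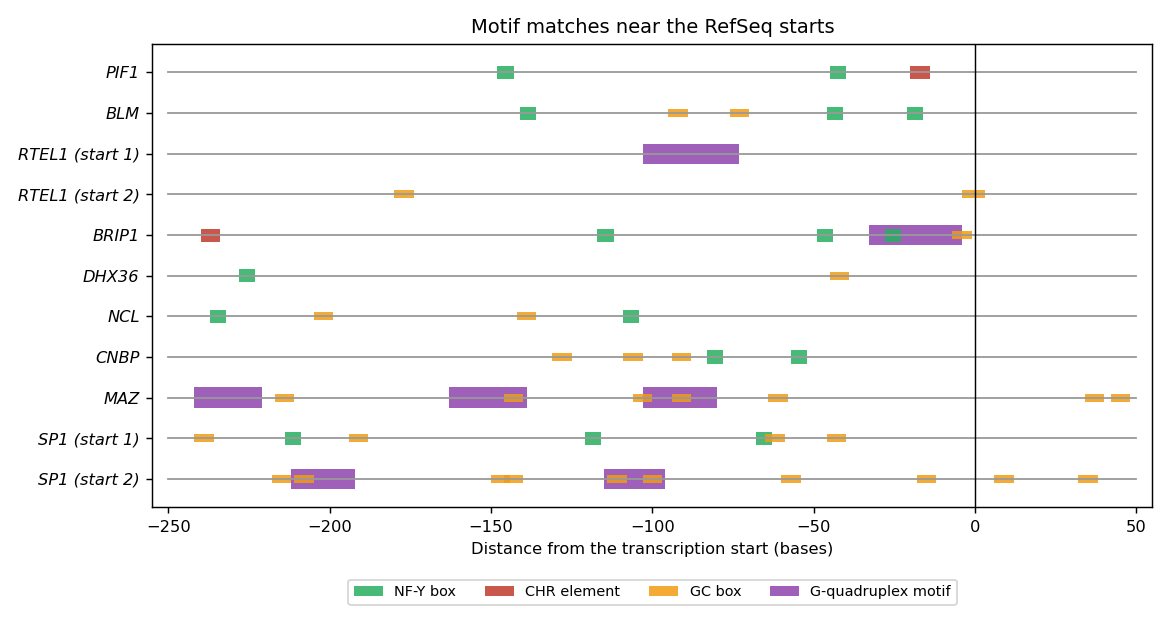
Motif matches from 250 bases before to 50 bases after each RefSeq start (horizontal axis, bases from the start site), 1 row per start, for the 9 genes in the promoter table. Purple blocks are G-quadruplex motifs, green NF-Y (CCAAT) boxes, red CHR elements and orange GC boxes; PIF1 is the row with a CHR close to the start and no GC box, and purple blocks lie in RTEL1, BRIP1, MAZ and SP1.

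Depth was close to equal across the 6 libraries, from 53129375 to 55537611 counted reads. The treatment check behaved alike in both replicates: HMOX1, which encodes the heme-degrading enzyme, went from 10.4 and 11.4 CPM (counts scaled to library size with TMM factors) in the controls to 451 and 328 at 2 h and 382 and 341 at 4 h. MYC stood at 529 and 510 CPM in the controls, 1247 and 1080 at 2 h and 544 and 553 at 4 h. The epithelial markers KRT8, KRT18, KRT19, CDH1 and EPCAM had at least 13891 reads in every library, and VIM at least 711; at 2 h CDH1 was called higher and EPCAM lower. The luminal markers KLK3 and FOLH1 and the red cell genes HBA1 and HBB had 0 reads throughout, where at most 0.0565 CPM (3 reads) could have gone unseen. The luminal list summed to between 13.2 and 19.5 CPM (unscaled), with TMPRSS2 called higher at 2 h. Of the 11 blood, endothelial and fibroblast markers, CD14, PECAM1 and COL1A1 were called higher at 2 h, and the list summed to between 45.0 and 51.8 CPM (unscaled) in control and 4 h libraries and to 93.9 and 79.1 CPM at 2 h. PTPRC, CD3E and COL1A2 of that list had at most 5 reads in any library, and the part of these genes in the results below was not tested.

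After 2 h of heme, PIF1, DHX36, NCL and CNBP were lower than in untreated cells, by 3.42-fold, 1.41-fold, 1.49-fold and 1.31-fold. BLM, WRN, RTEL1, BRIP1, MAZ and SP1 did not pass the test. That made 4 of 10 genes lower and 0 higher (edgeR adjusted p under 0.05). Among all genes tested 15.8% were called lower and 15.9% higher at 2 h. At an unadjusted p under 0.05 the same 4 genes passed, all lower, where 42.6% of all genes tested passed in either direction, and DESeq2 also called 4 lower and 0 higher. Both 2 h libraries lay below both controls for 5 of the 10, the 4 called genes and WRN (33.2% of all genes tested), and above them for SP1 (34.6%). The median log2 fold change of the 10 genes was -0.27, against 0.017 over all genes tested. The count describes these genes and was not tested as a group. The data are from bulk RNA, in which fewer cells that express a gene and less RNA per cell cannot be told apart. At 4 h none of the 10 was called, and the 4 genes were higher at 4 h than at 2 h. Fold changes below are log2 values from edgeR's quasi-likelihood fit with their standard error (SE) and 95% interval, n = 2 libraries per group, and adjusted p-values are Benjamini-Hochberg values over all 16209 genes.

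**Figure D2:**
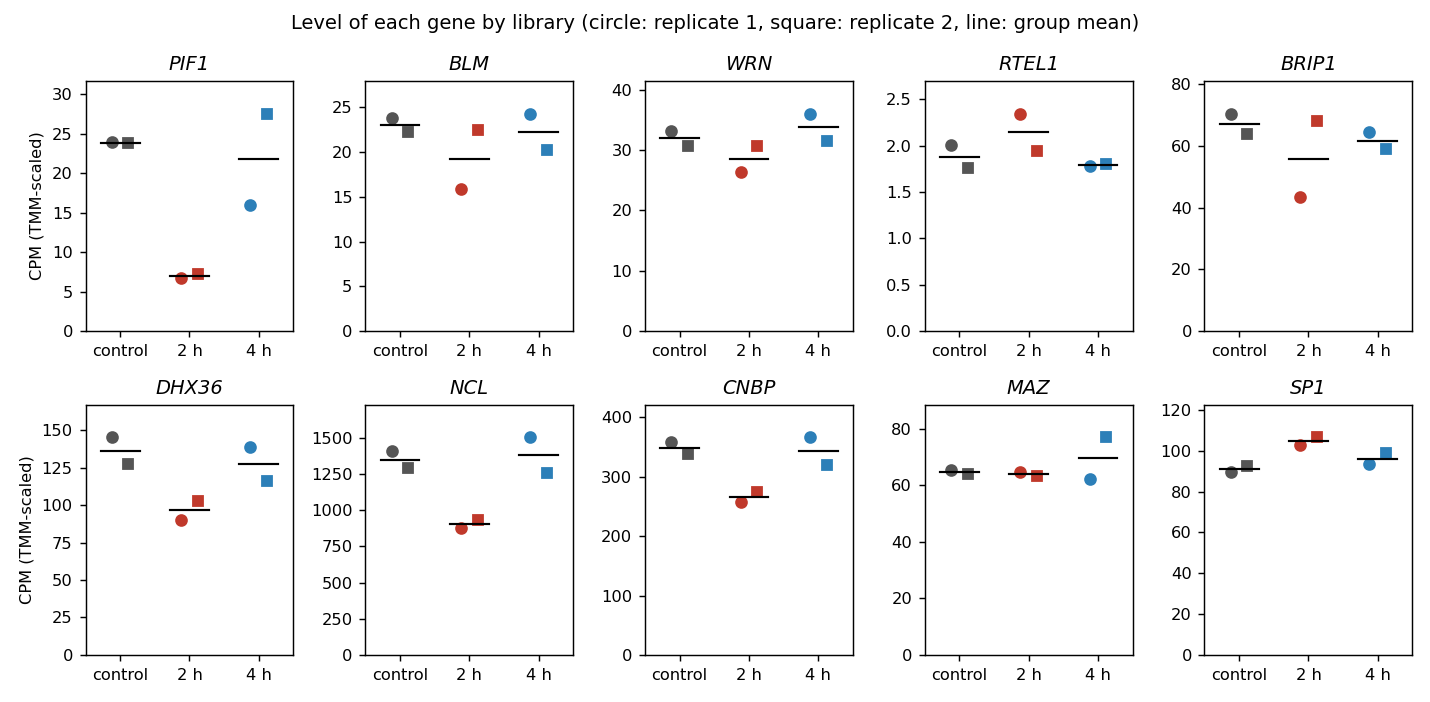
Level of each of the 10 genes in CPM (vertical axes, from 0, a scale of its own per gene) in the control, 2 h and 4 h libraries; circles are replicate 1, squares replicate 2 and lines the mean of 2. PIF1 at 2 h (6.77 and 7.19 CPM) lies far below its controls (23.9 and 23.8 CPM), DHX36, NCL and CNBP dip at 2 h, and the 2 libraries at 2 h stand apart for BLM and BRIP1.

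PIF1 works at telomeres, at replication forks and in mitochondria. It lies on chromosome 15 from 64815632 to 64825668 on the minus strand (ENSG00000140451.12, GENCODE 29 on GRCh38). Its raw counts were 1241 and 1282 in the controls, 384 and 414 at 2 h, and 824 and 1492 at 4 h, which is 23.9 and 23.8, 6.77 and 7.19, and 16.0 and 27.5 CPM. Both 2 h libraries lay below every other library, and the 4 h libraries lay 1 on each side of the controls. The fall at 2 h was 70.7% (log2 -1.77, SE 0.20, interval -2.20 to -1.35, edgeR adjusted p = 2.81e-05). It was the 25th largest fall in size of the 2557 genes called lower. From 2 h to 4 h PIF1 rose 3.11-fold (log2 1.64, SE 0.20, edgeR adjusted p = 4.48e-05). At 4 h it was not distinguished from control (log2 -0.13, SE 0.19, interval -0.53 to 0.27 by edgeR), and the 4 h libraries differed more from each other (21.7 ± 8.17 CPM, SD, n = 2) than did the controls (23.8 ± 0.126 CPM). Without replicate 1 of the 4 h group the log2 value at 4 h was 0.21, and without replicate 2 it was -0.57.

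BLM and WRN are the RecQ helicases lost in Bloom and Werner syndromes. BLM (chromosome 15, 90717327 to 90816165, plus strand, ENSG00000197299.11) had 23.9 and 22.3 CPM in the controls, 15.9 and 22.5 at 2 h, and 24.3 and 20.2 at 4 h. Only replicate 1 of the 2 h group was low, so the groups overlapped, and BLM was not called at 2 h (log2 -0.27, SE 0.16, interval -0.60 to 0.07, edgeR adjusted p = 0.216). WRN (chromosome 8, 31033801 to 31173769, plus strand, ENSG00000165392.9) had 33.2 and 30.7 CPM in the controls, 26.4 and 30.6 at 2 h, and 36.0 and 31.5 at 4 h. Both 2 h libraries of WRN lay under both controls, by a margin smaller than the spread within either group (log2 -0.16, SE 0.13, interval -0.43 to 0.10, edgeR adjusted p = 0.345). Of the other 3 RecQ genes, RECQL was lower at 2 h (log2 -0.50, SE 0.16), RECQL5 was higher (log2 0.67, SE 0.13) and RECQL4 was not called (log2 -0.15). RECQL5 had 27.2 and 28.1 CPM in the controls and 41.1 and 47.2 at 2 h, so both 2 h libraries stood above both controls.

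BRIP1 is the partner of BRCA1 in the repair of crosslinks and at replicated G-quadruplexes. It lies on chromosome 17 from 61681266 to 61863521 on the minus strand (ENSG00000136492.8). Its levels were 70.4 and 63.7 CPM in the controls, 43.5 and 68.1 at 2 h, and 64.3 and 59.0 at 4 h. As with BLM, replicate 1 at 2 h was the lowest library and replicate 2 lay between the controls, and BRIP1 was not called (log2 -0.27, SE 0.16, interval -0.60 to 0.07, edgeR adjusted p = 0.217). Without replicate 2 of the 2 h group both were called lower, at log2 -0.56 and -0.65 (edgeR adjusted p = 0.00424 and 2.25e-04). Without replicate 1 BRIP1 stood at log2 0.018. Replicate 1 of the 2 h group was also the lower one for 25 DNA replication genes, whose mean log2 level against control was -0.64 there and -0.27 in replicate 2. The part of this difference between libraries in the values of BLM and BRIP1 was not tested.

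Replicate 1 at 2 h lay below replicate 2 in the mean of each related list shown in the plot of lists, and of the 10 genes themselves (-0.44 and -0.28). For the partners of BLM and BRIP1 the mean log2 level against control was -0.34 in replicate 1 and 0.027 in replicate 2. Of the 8 partner genes 1 was called lower at 2 h, BARD1 (log2 -0.69, SE 0.15), the partner of BRCA1, and 1 higher. Over all genes tested edgeR called 15.8% lower and 15.9% higher. At an unadjusted p under 0.05, which 42.6% of all genes tested met in either direction, 3 partner genes were lower and 1 higher. RMI2, a subunit of the complex that dissolves double Holliday junctions with BLM, was higher (log2 0.46, SE 0.15), in both 2 h libraries alike (10.5 and 9.97 CPM, against 6.75 and 8.04 in the controls). TOP3A (log2 -0.29, SE 0.13) and RMI1 (log2 -0.60, SE 0.24) of the same complex were not called.

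RTEL1, a helicase that keeps telomeres and their loops replicable, lies on chromosome 20 from 63657810 to 63696253 on the plus strand (ENSG00000258366.8). It had 104 and 95 reads in the controls, 133 and 112 at 2 h, and 92 and 98 at 4 h, the lowest counts of the 10 genes. In GENCODE 29, 4522 of its 6440 exonic bases (70.2%) also belong to the read-through gene RTEL1-TNFRSF6B, which is in the count tables with between 38 and 88 reads per library. Reads that fit both genes are left out of gene counts under the usual HTSeq setting, so the value of RTEL1 is a remainder and uncertain. In CPM the controls had 2.01 and 1.76, the 2 h libraries 2.34 and 1.94 and the 4 h libraries 1.78 and 1.81, so the groups overlapped at 2 h. It was not called at 2 h (log2 0.19, SE 0.24, edgeR adjusted p = 0.582) and its interval, from -0.32 to 0.69, was the widest of the 10 at that time. Of the other iron-sulfur helicase genes ERCC2, a subunit of the repair and transcription factor TFIIH, was lower (log2 -0.27, SE 0.10, edgeR adjusted p = 0.0463), and DDX11 (log2 0.067) and DNA2 (log2 -0.26) were not called.

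DHX36 unwinds both DNA and RNA G-quadruplexes and acts on messenger RNAs. It lies on chromosome 3 from 154272546 to 154324497 on the minus strand (ENSG00000174953.13). Its levels were 145 and 128 CPM in the controls, 90.4 and 103 at 2 h, and 139 and 116 at 4 h. Both 2 h libraries lay below all 4 others, while a 4 h library lay below the controls and the other between them. DHX36 fell by 29.1% at 2 h (log2 -0.50, SE 0.11, interval -0.74 to -0.25, edgeR adjusted p = 0.00479). It rose from 2 h to 4 h (log2 0.40, SE 0.11, edgeR adjusted p = 0.0174), and 4 h against control was not called (log2 -0.10, interval -0.34 to 0.15). At 2 h 15.8% of all genes tested were called lower and 15.9% higher by edgeR, and 42.6% had an unadjusted p under 0.05. Among 5 other DEAD- and DEAH-box helicases linked to G-quadruplexes, 4 were lower at 2 h and 0 higher, by edgeR, at an unadjusted p under 0.05 and by DESeq2 alike. They were DDX21, which acts in ribosomal RNA synthesis (log2 -0.55, SE 0.10), DDX1 (log2 -0.47, SE 0.10), DHX9 (log2 -0.47, SE 0.12) and DDX5 (log2 -0.31, SE 0.09).

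NCL, an abundant protein of the nucleolus that acts on ribosomal RNA, binds the G-quadruplex of the MYC promoter. It lies on chromosome 2 from 231453531 to 231483641 on the minus strand (ENSG00000115053.15), and the RefSeq start used above falls within that span. Its levels were 1409 and 1290 CPM in the controls, 875 and 933 at 2 h, and 1503 and 1255 at 4 h. Both 2 h libraries lay under all others with a wide gap, and the 4 h libraries lay 1 above and 1 below the controls. NCL fell by 33.0% at 2 h (log2 -0.58, SE 0.10, interval -0.79 to -0.37, edgeR adjusted p = 6.77e-04) and rose again from 2 h to 4 h (log2 0.61, SE 0.10, edgeR adjusted p = 4.67e-04). The snoRNA genes SNORA75, SNORD20 and SNORD82 lie within it in GENCODE 29 and were not analysed here. Of 12 other nucleolar genes 9 were lower at 2 h and 0 higher by edgeR and by DESeq2, where edgeR called 15.8% and 15.9% of all genes. At an unadjusted p under 0.05, which 42.6% of all genes tested met in either direction, all 12 were lower and 0 higher. The smallest p-values were those of POLR1B, a subunit of RNA polymerase I (log2 -0.87, SE 0.10), NOP58 (log2 -0.95, SE 0.13) and NOP56 (log2 -0.53, SE 0.09) of the box C/D particles, and DKC1, the pseudouridine synthase dyskerin (log2 -0.54, SE 0.09).

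CNBP, a small protein with zinc knuckles that binds guanine-rich single strands, lies on chromosome 3 from 129169484 to 129183922 on the minus strand (ENSG00000169714.16). Its levels were 359 and 338 CPM in the controls, 257 and 274 at 2 h, and 366 and 320 at 4 h. The 2 h libraries did not overlap with any other. CNBP fell by 23.9% at 2 h (log2 -0.39, SE 0.10, interval -0.60 to -0.19, edgeR adjusted p = 0.00683) and rose from 2 h to 4 h (log2 0.37, SE 0.10, edgeR adjusted p = 0.0104). Leaving out replicate 1 of the controls ended the 2 h calls of CNBP (log2 -0.36) and DHX36 (log2 -0.41). PIF1 and NCL were still called lower, and over all genes tested fewer were called lower than with all libraries.

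MAZ and SP1 are transcription factors with zinc fingers that recognise guanine-rich duplex and have been described at G-quadruplex promoters. MAZ (chromosome 16, 29806106 to 29811164, plus strand, ENSG00000103495.13) had 65.4 and 63.8 CPM in the controls, 64.7 and 63.1 at 2 h, and 62.2 and 76.9 at 4 h. Its 2 h interval was centred near 0 (log2 -0.016, SE 0.11, interval -0.26 to 0.23, edgeR adjusted p = 0.932), and the 2 h libraries lay at the level of the controls. In GENCODE 29, 58.3% of the exonic bases of MAZ are shared with the antisense genes AC009133.1 and AC009133.2, which had between 227 and 393 reads and 0 reads per library, and without the strand setting reads there cannot be told apart. SP1 (chromosome 12, 53380176 to 53416446, plus strand, ENSG00000185591.9) had 89.7 and 92.4 CPM in the controls, 103 and 107 at 2 h, and 93.5 and 98.7 at 4 h. Both 2 h libraries of SP1 lay above all others, the reverse of the order seen for NCL or CNBP, but SP1 did not pass the threshold (log2 0.20, SE 0.10, interval -0.0017 to 0.41, unadjusted p = 0.0517 from edgeR, edgeR adjusted p = 0.12). Its relative SP3 was lower at 2 h (log2 -0.54, SE 0.13), with 91.4 and 84.7 CPM in the controls and 50.8 and 70.2 at 2 h, while SP2 (log2 0.28) and SP4 (log2 -0.082) were not called.

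**Figure D3:**
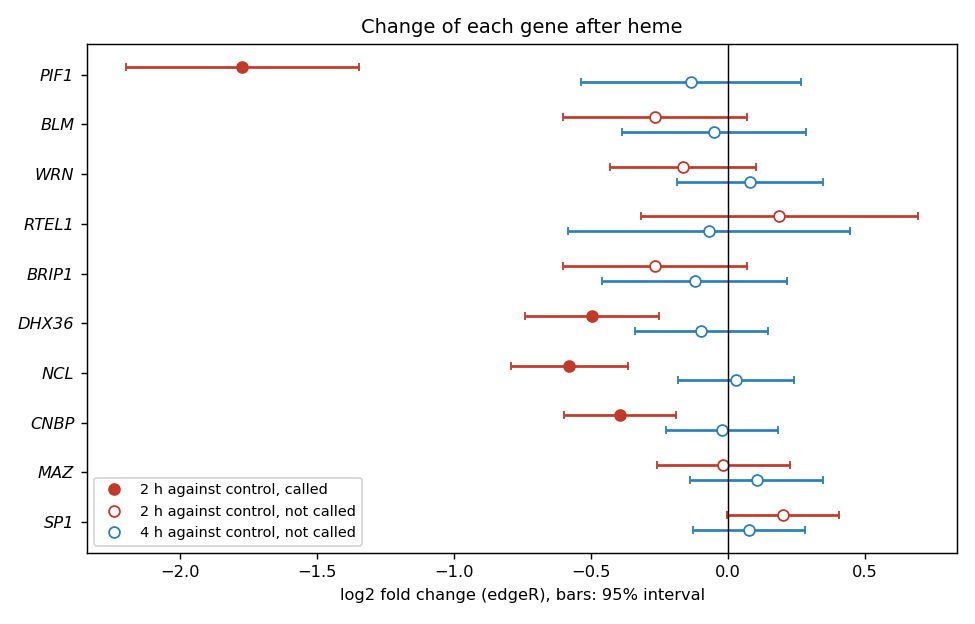
Log2 fold change of each gene (horizontal axis) at 2 h (red) and 4 h (blue) against control with 95% intervals from edgeR; filled points passed an adjusted p under 0.05 and open points did not. The 4 filled points are PIF1, DHX36, NCL and CNBP at 2 h, and every 4 h interval contains 0.

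None of the 10 genes was distinguished from control at 4 h. The log2 fold changes at 4 h ran from -0.13 for PIF1 to 0.11 for MAZ, and 0 of 10 genes were called lower or higher by edgeR or by DESeq2, with 0 at an unadjusted p under 0.05. Over all genes 0.00617% were called lower and 0.0247% higher at 4 h. The 4 h intervals together reached from -0.58 to 0.45, both ends being those of RTEL1, the gene with the fewest reads, while for NCL the interval was -0.18 to 0.24. In the direct comparison of 4 h with 2 h, 4 genes were higher and 0 lower by edgeR and DESeq2, against 14% and 14.1% of all genes tested. Both 4 h libraries stood above both 2 h libraries for 5 of 10 genes, the 4 called ones and WRN (29.6% of all genes), and below them for RTEL1 and SP1 (32.7% of all genes). At 4 h against control both libraries lay above both controls for SP1 alone of the 10 (17% of all genes), and below them for none (17.4%). The comparisons at 2 h and 4 h share the control libraries, and 4 h against 2 h shares the 2 h libraries with the first, so they are not separate evidence. Leaving out replicate 1 of the 4 h group left PIF1 and NCL called higher at 4 h than at 2 h. Leaving out replicate 2 of the 2 h group added BLM, WRN and BRIP1 to the genes called. The number called higher over all genes tested also fell in the first case and rose in the second.

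Levels were compared between genes per kilobase of exon (RPKM, from TMM-scaled CPM and the union of exons in GENCODE 29). In untreated cells NCL (195 ± 12.1 RPKM, SD, n = 2) and CNBP (181 ± 7.42) stood highest. Neighbours in the order did not overlap, though NCL was only 1.08 times CNBP. The order also rests on the exon lengths, 6929 bases for NCL and 1927 for CNBP. The spread between libraries does not include error in those lengths, so close neighbours could stand in another order. MAZ followed at 18.4 ± 0.331, 9.81 times under CNBP, then DHX36 at 12.9 ± 1.18, SP1 at 11.3 ± 0.239 and BRIP1 at 8.39 ± 0.588. WRN (5.66 ± 0.312), PIF1 (5.12 ± 0.0271) and BLM (3.46 ± 0.164) were lower, and RTEL1 (0.292 ± 0.0269) was last. Over its unshared exons alone RTEL1 would stand at 0.982 RPKM, still last, and MAZ at 44.2 RPKM, still between CNBP and DHX36. At 2 h PIF1 fell to 1.499 ± 0.0638 RPKM, under BLM at 2.88 ± 0.692, and SP1 at 13.0 ± 0.329 stood above DHX36 at 9.16 ± 0.845. NCL (130.4 ± 5.94 RPKM) was then under CNBP (138 ± 6.11), with overlapping libraries. The genes called lower at 2 h thus held the top of this order, NCL and CNBP, and also DHX36 and PIF1 further down.

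**Figure D4:**
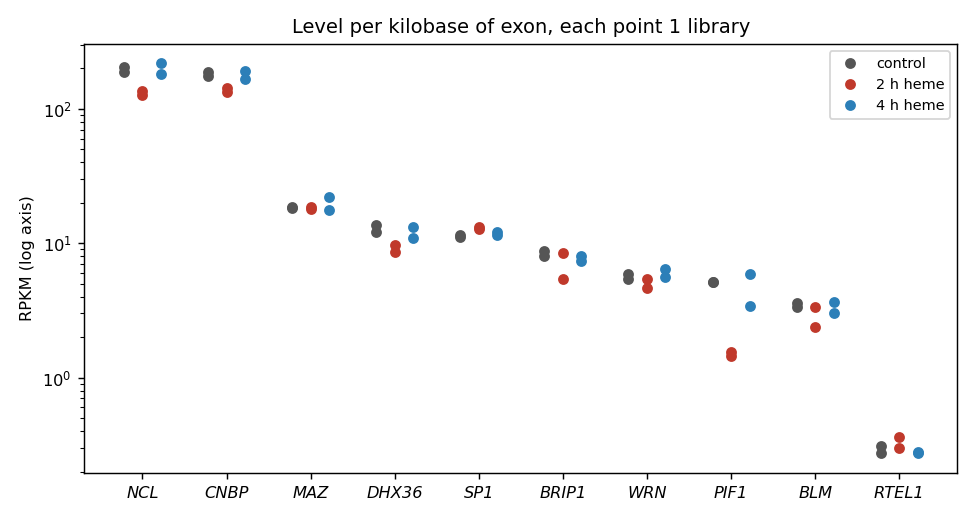
RPKM of each gene on a log axis in each of the 6 libraries (grey control, red 2 h, blue 4 h), genes in the order of their control mean. NCL and CNBP lie highest, between 126 and 217 RPKM in every library, RTEL1 lies under 1 RPKM, and PIF1 moves from just above BLM in the controls to below it at 2 h.

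The genes whose profiles over the 6 libraries lay nearest to those of PIF1, DHX36 and NCL were found by the root mean square distance between centred log2 CPM values, among 11930 genes with a mean of at least 2 CPM. For PIF1 they were CCNF, the cyclin F gene (distance 0.18 on the log2 scale), KIF18B, a mitotic kinesin (0.23), ADAMTS1 (0.23), HJURP, the chaperone of the centromere histone (0.24), and PLCL2 (0.24), where the median over all genes was 0.81. CCNF had 72.6 and 67.3 CPM in the controls, 19.4 and 22.2 at 2 h, and 65.5 and 79.2 at 4 h. HJURP had 110 and 100 CPM in the controls, 24.4 and 34.6 at 2 h, and 92.1 and 100 at 4 h. For DHX36 the nearest were MICU2, SBDS, a ribosome maturation factor, DIS3, the exosome nuclease, ATG12 and FYTTD1, at 0.025 to 0.034 (median 0.26). For NCL they were PAK1IP1, DCAF13 and NGDN, factors of ribosome assembly, the chaperonin subunit CCT6A, and ZNF35, at 0.028 to 0.032 (median 0.30). Likeness over 6 libraries in 3 groups rests mainly on the difference of the 2 h group and is given as a description.

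Over all genes tested, edgeR called 15.8% lower and 15.9% higher at 2 h, and 42.6% had an unadjusted p under 0.05. Among 24 genes of G2 and mitosis, 15 were lower at 2 h and 2 higher by edgeR (14 and 2 by DESeq2), with a median log2 of -0.48. The 2 higher were the phosphatase genes CDC25B (log2 0.44) and CDC25C (log2 0.87). HJURP (log2 -1.83, SE 0.14), CCNF (log2 -1.75, SE 0.12), CCNA2, the cyclin A gene (log2 -0.86, SE 0.13), and AURKA, the Aurora A kinase gene (log2 -0.81, SE 0.09), had the smallest p-values. PIF1 thus fell by about as much as the most strongly reduced genes of that list. The promoter table held 21 genes of the list, of which 12 (57.1%) carried both a CCAAT box and a CHR, as PIF1 did, against 7.26% of all 27305 genes there. The carriers went both ways. Of the 12, 8 were lower at 2 h, HJURP and CCNF among them, and 1 was higher, CDC25C. The 3 not called were CCNB2 (log2 0.12), CDC20 (log2 -0.19) and TOP2A (log2 -0.012). In the whole list 15 of 24 were lower, and whether the pair of motifs went with a fall was not tested. Of 25 DNA replication genes 14 were lower and 0 higher at 2 h by edgeR and DESeq2 (17 and 0 at an unadjusted p under 0.05), with CCNE1, the cyclin E1 gene (log2 -1.05, SE 0.14), RRM2, a subunit of ribonucleotide reductase (log2 -0.92, SE 0.13), GINS3 (log2 -0.92, SE 0.13) and CDT1 (log2 -0.89, SE 0.13) leading. Only 1 of their 21 genes with a promoter held both motifs. Like PIF1, both lists had a lower mean in both 2 h libraries than in the controls. In replicates 1 and 2 at 2 h the mean log2 level against control was -0.56 and -0.35 for G2 and mitosis. For DNA replication it was -0.64 and -0.27, while PIF1 was alike in the 2 libraries, at 6.77 and 7.19 CPM. The part of these lists in the fall of PIF1 was not tested.

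The counts that follow stand beside 15.8% of all genes tested called lower and 15.9% higher at 2 h by edgeR, and 42.6% with an unadjusted p under 0.05. Other proteins that bind DNA G-quadruplexes had 9 of 20 genes lower at 2 h and 1 higher, TERF2, the telomere factor TRF2 (log2 0.35, SE 0.11). RIF1, which sets replication timing (log2 -0.91, SE 0.17), REV1, the translesion polymerase that works past G-quadruplexes (log2 -0.76, SE 0.13), SUB1, the coactivator PC4 (log2 -0.75, SE 0.12), and NME1 (log2 -0.52, SE 0.09) had the smallest p-values. Proteins that bind RNA G-quadruplexes had 11 of 16 tested genes lower and 0 higher by edgeR and DESeq2 (12 and 0 at an unadjusted p under 0.05). They included the splicing factors SRSF1 (log2 -0.62, SE 0.12) and HNRNPF (log2 -0.47, SE 0.09), the mitochondrial factor GRSF1 (log2 -0.41, SE 0.09) and SERBP1 (log2 -0.43, SE 0.10). LIN28B was the 1 gene of 17 that did not pass the filter. Telomere and telomerase genes went both ways, with 4 of 8 lower and 2 higher. DKC1, TERF1 (log2 -0.35, SE 0.12), TERF2IP (log2 -0.28) and TERT, the catalytic subunit of telomerase (log2 -0.93), were lower. The level of TERT was low, at 1.77 and 1.70 CPM in the controls, 0.83 and 0.99 at 2 h, and 1.07 and 2.16 at 4 h. ACD (log2 0.35, SE 0.12) and TERF2 were higher. At 4 h 0 genes of these lists were called by edgeR.

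**Figure D5:**
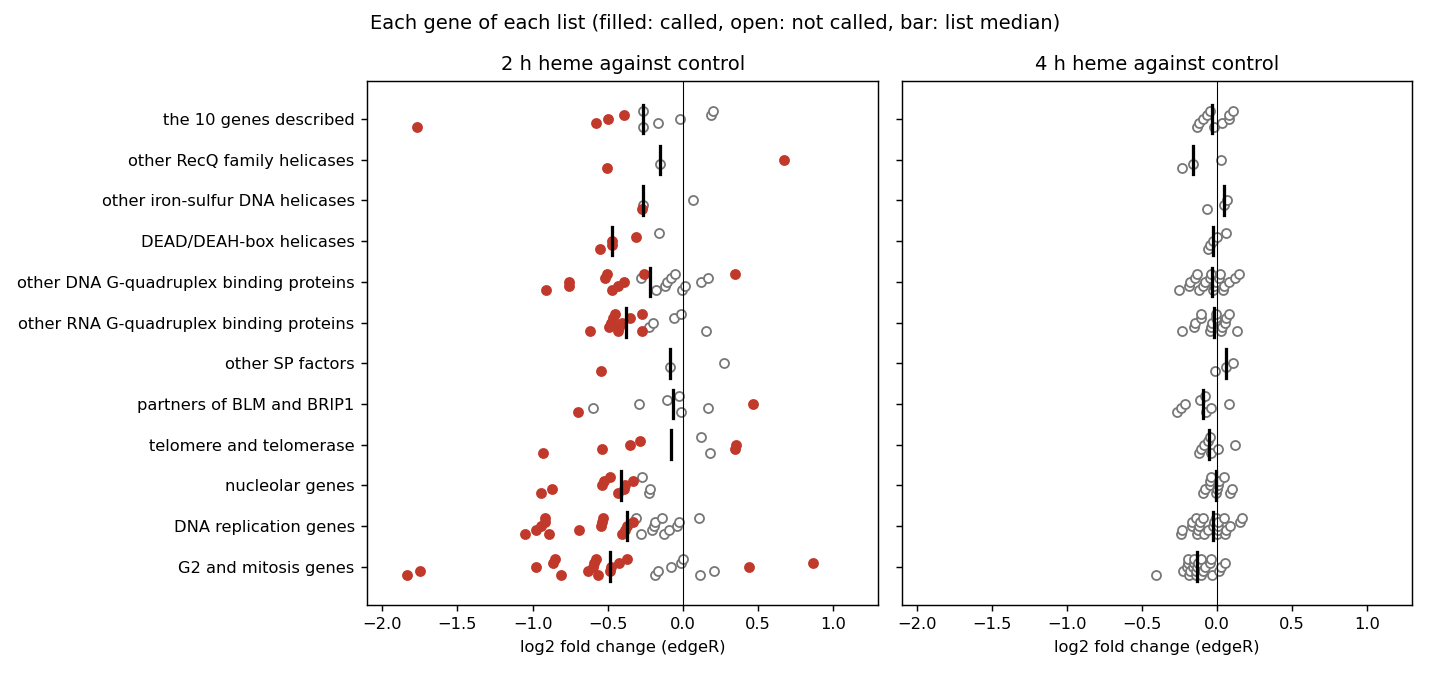
Log2 fold change (horizontal axes) at 2 h and at 4 h against control for each gene of the 10 described and of 11 related lists, 1 point per gene; filled points passed the test, and bars are list medians. At 2 h the list medians lie between -0.48 for G2 and mitosis genes and -0.07 for the partners of BLM and BRIP1, and at 4 h no point is filled.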

How the data were processed

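RNA of 6 PC3 libraries was sequenced after Trizol extraction and an Illumina TruSeq kit, per the labels' protocols. For each library the authors deposited a table of unnormalized read counts, with gene symbols as rows and closing lines like those of HTSeq. The submitters' processing notes name the hg38 build, deepTools, SAMtools, STAR and Trimmomatic, without their roles. The versions, the annotation release and the strand setting were not given in the sources used here. The 5 summary lines were left out of totals and tests. Reads outside genes made up 5.48% to 6.88% and ambiguous reads 4.23% to 4.48% of a library. Of 33514 symbols, 33164 matched 1 gene of GENCODE release 29, the source of coordinates and exon lengths.

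The quasi-likelihood test of edgeR 4.0.16 (R 4.3.3) was run two-sided on the 6 libraries together, with 3 residual degrees of freedom, after TMM scaling and filterByExpr at a minimum count of 10, and p-values were adjusted over 16209 genes. Intervals used 14.9 degrees of freedom. The fit gave each gene 1 estimate of the spread for all 3 groups. Replicates differed more at 2 h and 4 h (chi-square between replicates, per gene, 33.9 and 21.9) than in the controls (8.78). How far this affects the standard errors and intervals was not tested. DESeq2 1.42.0 and other settings were alternatives. The gene test was tested on simulated data. The 10 genes, the lists and the rule for naming genes were chosen with earlier results of these data known. The rule named all 10 genes, up to 4 genes per list by the smallest p at 2 h, neighbouring genes, and the 5 nearest profiles for PIF1, DHX36 and NCL. MYC, HMOX1 and the marker genes were listed as checks, and CDC25B, CDC25C, CCNB2, CDC20, TOP2A, TERF2IP, TERT and LIN28B were named after their values were seen. Lists carry counts and medians only. Some genes, among them NPM1, DKC1, TERF2, POT1 and BRCA1, are in more than 1 list, so the lists are not separate groups. A count of 0 allows 3 reads, and such limits cover counting error only.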

Additional observations from a re-analysis of the deposited data

Results flagged for a closer look

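Of the 10 genes, 4 differed between 4 h and 2 h of heme in the direct test. Over all genes tested it called 14% higher and 14.1% lower at 4 h. It is also the test of whether the change from control differed between the times. PIF1 was higher at 4 h by log2 1.64 (edgeR adjusted p = 4.48e-05), NCL by 0.61 (edgeR adjusted p = 4.67e-04), DHX36 by 0.40 (edgeR adjusted p = 0.0174) and CNBP by 0.37 (edgeR adjusted p = 0.0104). Both 4 h libraries lay above both 2 h libraries for each of them, as they did for 29.6% of all genes tested. With 2 libraries a group no sample could be tested as an outlier.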

How the results depend on the processing

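PIF1 and NCL were called lower at 2 h, and higher at 4 h than at 2 h, under every alternative run. The calls of DHX36 and CNBP were less firm. The count of genes lower at 2 h was 4 with all libraries and 2 when a change beyond 1.2-fold was required (glmTreat), and so was the count of genes higher at 4 h than at 2 h. Over all genes tested, that requirement also brought the count lower at 2 h from 2557 to 1051. It brought the count higher at 4 h than at 2 h from 2270 to 979. Leaving out 1 library at a time gave 2 to 6 genes lower at 2 h and 2 to 7 higher at 4 h than at 2 h. The smallest counts came without replicate 1 of the controls and replicate 1 of the 4 h group, and the largest without replicate 2 of the 2 h group. Among these runs the counts over all genes tested were smallest and largest in the same places, so the shifts were not particular to the 10 genes. With 1 library left in a group, that library is assumed to vary like the others. DESeq2, its size factors in edgeR, no filter on low counts and a fit of only the groups compared called the 4 genes in both comparisons. At 4 h against control 0 of 10 genes were called under each alternative.

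The replicate numbers did not pair the libraries (correlations between groups of the replicate differences from -0.091 to 0.065). With the replicate number as a block 4 genes were again lower at 2 h and 4 higher at 4 h than at 2 h, while ERCC2, ACD and TERF2IP were no longer called at 2 h and RMI1 was.

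Of the other genes named above, RECQL, ERCC2, DDX5, GRSF1, SERBP1, RMI2, BARD1, TERF1, TERF2, ACD, TERF2IP, TERT, CDC25B, CDH1, EPCAM and TMPRSS2 lost their 2 h call when replicate 1 of the controls was left out. All of these but RECQL, DDX5, GRSF1, SERBP1, BARD1 and CDC25B also lost it without replicate 2 of the controls, and all but GRSF1, SERBP1, BARD1, TERF2 and CDC25B without replicate 1 of the 2 h group, where CDC20 was called. TERF2IP also lost it with no filter on low counts, with only the groups compared and without replicate 1 of the 4 h group, and RMI2 and ACD without replicate 2 of the 4 h group. With no filter RMI2, TERF2, ACD and CDH1 were not called, and RMI1 was. Requiring a change beyond 1.2-fold ended the 2 h calls of RECQL, ERCC2, DHX9, DDX5, GRSF1, SERBP1, RMI2, TERF1, TERF2, ACD, TERF2IP, TERT, CDC25B, CDH1 and EPCAM. RECQL4, DNA2, SP2, TOP3A and RMI1 were called without replicate 2 of the 2 h group.

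Some values near 0 changed sign when 1 library was left out. Their lowest and highest log2 values follow, and the cause was not tested. At 4 h against control PIF1 ran from -0.57 to 0.21, DHX36 from -0.23 to 0.031, BLM from -0.19 to 0.079, WRN from -0.021 to 0.18, RTEL1 from -0.16 to 0.029, NCL from -0.11 to 0.16, CNBP from -0.12 to 0.076 and MAZ from -0.051 to 0.25. At 4 h against 2 h BLM ran from -0.0095 to 0.51, BRIP1 from -0.14 to 0.53 and MAZ from -0.015 to 0.27. At 2 h against control BRIP1 ran from -0.65 to 0.018, RECQL4 from -0.39 to 0.024, DDX11 from -0.022 to 0.13, DNA2 from -0.74 to 0.078, SP4 from -0.42 to 0.17, KRT18 from -0.094 to 0.19, KRT19 from -0.079 to 0.24, TOP2A from -0.14 to 0.082 and PDGFRB from -1.75 to 0.49.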
